A study of Mus musculus with 3 samples.

Results

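The genes described are those of the cytosolic ribosomal proteins, chosen by symbol: Rpl or Rps followed by a number, Rplp followed by a number, or Rpsa, leaving out the Rps6k kinases and symbols with -ps. This gave 68 of the 19505 genes named on the array, 41 with large subunit symbols and 27 with small subunit symbols, each with 1 probe set. A further 22 protein-coding symbols of the same form in RefSeq, among them Rplp2, Rpl12 and Rps2, were not analysed here. Of the 68 members, 55 encode canonical subunits and 13 are paralogs, retrogenes or genes that only share the name. Rps19bp1, for example, encodes a protein that binds Rps19 and is not a ribosomal subunit.

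The study asked how natural compounds act on the migration of plasmacytoid dendritic cells, the dendritic cells that secrete type I interferon. Wild-type marrow came from BALB/c males that were 4 to 5 weeks old. It was cultured for 6 to 9 days in 100 ng/mL Flt3 ligand, and the resulting cells were matured with CpG oligodeoxynucleotides and sorted. There was 1 array for cells given Astragaloside IV for 12 h and then the chemokine CCL21 for 1 h, 1 array for cells given Oxymatrine for 12 h and then CCL21 for 1 h, and 1 array for control cells. Astragaloside IV is a saponin of Astragalus root and oxymatrine an alkaloid of Sophora root. The labels do not give the doses or whether the control cells received a vehicle or CCL21, so compound and chemokine cannot be told apart in a difference from control. With 1 array per group there are no replicates and no test, and every difference below describes 3 arrays.

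Each eukaryotic ribosome joins a large subunit, which forms peptide bonds, and a small subunit, which reads the mRNA. The mRNAs of these proteins begin with a terminal oligopyrimidine (TOP) motif, a C followed by a run of C and T, through which the mTORC1 kinase and the RNA-binding protein LARP1 set their translation. Dendritic cells need new protein when they mature, and plasmacytoid cells also need it for the secretion of interferon.

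The start of a ribosomal protein mRNA can be read from RefSeq promoter sequences (build GRCm38.p6), which were found for 55 of the 68 members. The first transcribed base was a C followed by at least 4 C or T in 13 of the 55 (23.6%), against 3.01% of 27025 genes with an entry and 0 of 69 genes for mitochondrial ribosomal proteins. Allowing the run to start within 10 bases of the annotated start on either side gave 33 of the 55 members and 34.4% of all genes, since annotated starts can lie some bases off. The windows that follow run from 10 bases before the start to 20 bases into the transcript, so that base 11 is the first transcribed one. They show 5 of the 13 members with the motif at the annotated start, chosen as examples after the values had been seen. None of these 5 was lower than control with oxymatrine. The 4 of the 13 that were lower (Rps27rt, Rpl35, Rpl32l and Rpl35a) are not shown, so the windows are no fair comparison of the motif. The second 5 genes are the members lowest with oxymatrine among those with a promoter entry. Capitals mark a pyrimidine run from its C nearest the annotated start, where that C lies within 10 bases of the start. In the first 5 genes C or T also stand directly before the capitals, so those runs begin upstream of the annotated start. Runs that start further in are left in small letters, as in Rplp0 and Rpl36al.
Rpl28 (chr7:4792955-4792984, plus strand): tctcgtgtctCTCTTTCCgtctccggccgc
Rpl38 (chr11:114668570-114668599, plus strand): aagcctcgttCTTTCCCCgttctcttcggt
Rps6 (chr4:86857348-86857377, minus strand): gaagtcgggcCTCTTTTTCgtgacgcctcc
Rpl15 (chr14:18270967-18270996, minus strand): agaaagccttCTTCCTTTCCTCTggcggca
Rps18 (chr17:33955646-33955675, minus strand): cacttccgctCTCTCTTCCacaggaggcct
Rplp0 (chr5:115559457-115559486, plus strand): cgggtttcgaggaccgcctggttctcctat
Rps19, start 1 (chr7:24884582-24884611, plus strand): aatctcgcgagactcgacgcccgacttgtg
Rps19, start 2 (chr7:24884666-24884695, plus strand): cggtgagtgagggctctgggtcgcggctgt
Rps19, start 3 (chr7:24884903-24884932, plus strand): agcggggtgtggagggCTCTCCCacgcggt
Rpl36al (chr12:69184048-69184077, minus strand): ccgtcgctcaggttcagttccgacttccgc
Rpl37rt (chr5:115110249-115110278, minus strand): caggccagagcccgcacccagcagtgcgtg
Rps28 (chr17:33824543-33824572, minus strand): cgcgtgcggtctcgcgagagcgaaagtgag
Rps19 has 3 annotated starts, and at start 3 a pyrimidine run begins at transcribed base 7. A gene with several starts was counted as holding a motif where any of them did.

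The values are log2 levels made by RMA, and a gene counted as above background at a mean of 5.28 or more. This level is the 95th percentile of 1410 genes for olfactory and vomeronasal receptors, which blood cells do not normally express. Of 14 plasmacytoid markers, 13 were measured and all 13 were above background. With astragaloside IV 7 of the 13 were lower than control, 0 higher and 6 equal (median -0.09), and with oxymatrine 9 were lower, 2 higher and 2 equal (median -0.02). Over all genes above background 40.8% were lower with astragaloside IV and 46% with oxymatrine. The levels of the 13 markers summed to 135.7 with astragaloside IV, 135.5 with oxymatrine and 137.1 in control. The marker furthest below control with oxymatrine was Spib, a transcription factor of these cells, with a difference of -0.48. Spib was at 8.03 with astragaloside IV, 7.55 with oxymatrine and 8.03 in control. All 6 monocyte and macrophage markers were also above background, and they summed to 75.21 with astragaloside IV, 74.98 with oxymatrine and 75.16 in control. Among them Lyz2, the lysozyme gene of myeloid cells, was at 13.88 in each array. Hybridisation controls are labelled bacterial and phage transcripts (bioB, bioC, bioD and cre) that are added in fixed amounts to each array. All 4 lay below their level in the control array, by -0.09 to -0.01 with astragaloside IV and by -0.25 to -0.15 with oxymatrine. Poly-A spike transcripts, which are added to the RNA before labelling, differed from control by 0.10 to 0.30 with astragaloside IV and by -0.21 to 0 with oxymatrine. Probe sets for exons of control genes differed by a mean of -0.04 with astragaloside IV and -0.13 with oxymatrine, and those for introns by 0.16 with astragaloside IV and 0.15 with oxymatrine. Markers of conventional type 1 dendritic cells above background (4 of 6 measured) summed to 31.8 with astragaloside IV, 31.5 with oxymatrine and 32.9 in control, with the defining genes Xcr1 and Clec9a below background in every array. The part of these control and marker values in the results that follow was not tested. Since the samples are bulk RNA, fewer cells of a type and less RNA per cell cannot be told apart.

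Of the 68 members, 66 were above background, 39 of the large and 27 of the small subunit. The other two were Rpl3l and Rpl39l, paralogs known from striated muscle and from testis. Rpl3l was at 3.57 with astragaloside IV, 3.52 with oxymatrine and 3.57 in control, and Rpl39l was at 4.74 in each array. Of the canonical members, 53 of 55 had a mean level of 12 or more, a range that held 2083 of the 10671 genes above background. Levels of different probe sets depend on their probes and are not ranked here. Rps23, which encodes a protein near the decoding centre, was at 18.33 with astragaloside IV, 18.33 with oxymatrine and 18.28 in control.

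In the oxymatrine array the median ribosomal protein gene lay slightly lower than in control, and the share of members at least 1.2-fold lower was near that of genes of similar brightness. Among the 66 members above background there were 41 lower, 17 higher and 8 exactly equal (24.4% of all genes above background were equal), and their median difference was -0.03, against a median of 0 over all genes above background and -0.01 over genes at a level of 12 or more. Centring the arrays on the hybridisation controls turned this median to 0.16. That centring moves every gene of an array by the same amount, so the members' difference relative to other genes did not change. Lower by any amount were 62.1% of the members, 46% of all genes above background and 52.8% of those at 12 or more. Higher by any amount were 25.8% of the members, 29.7% of all genes above background and 28.3% of those at 12 or more. The number at least 1.2-fold lower, a log2 difference of 0.26, was 4 (6.06% of the members), while 12.5% of all genes above background and 6.1% of genes at 12 or more were that much lower. None of the members was at least 1.2-fold higher, where 7% of all genes above background and 1.97% of genes at 12 or more were. At 1.1-fold 16 members were lower and 3 higher (24.1% and 13.7% of all genes above background), at 1.5-fold 1 and 0 (2.01% and 1.3%), and at 2-fold 0 and 0 (0.15% and 0.131%).

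**Figure D1:**
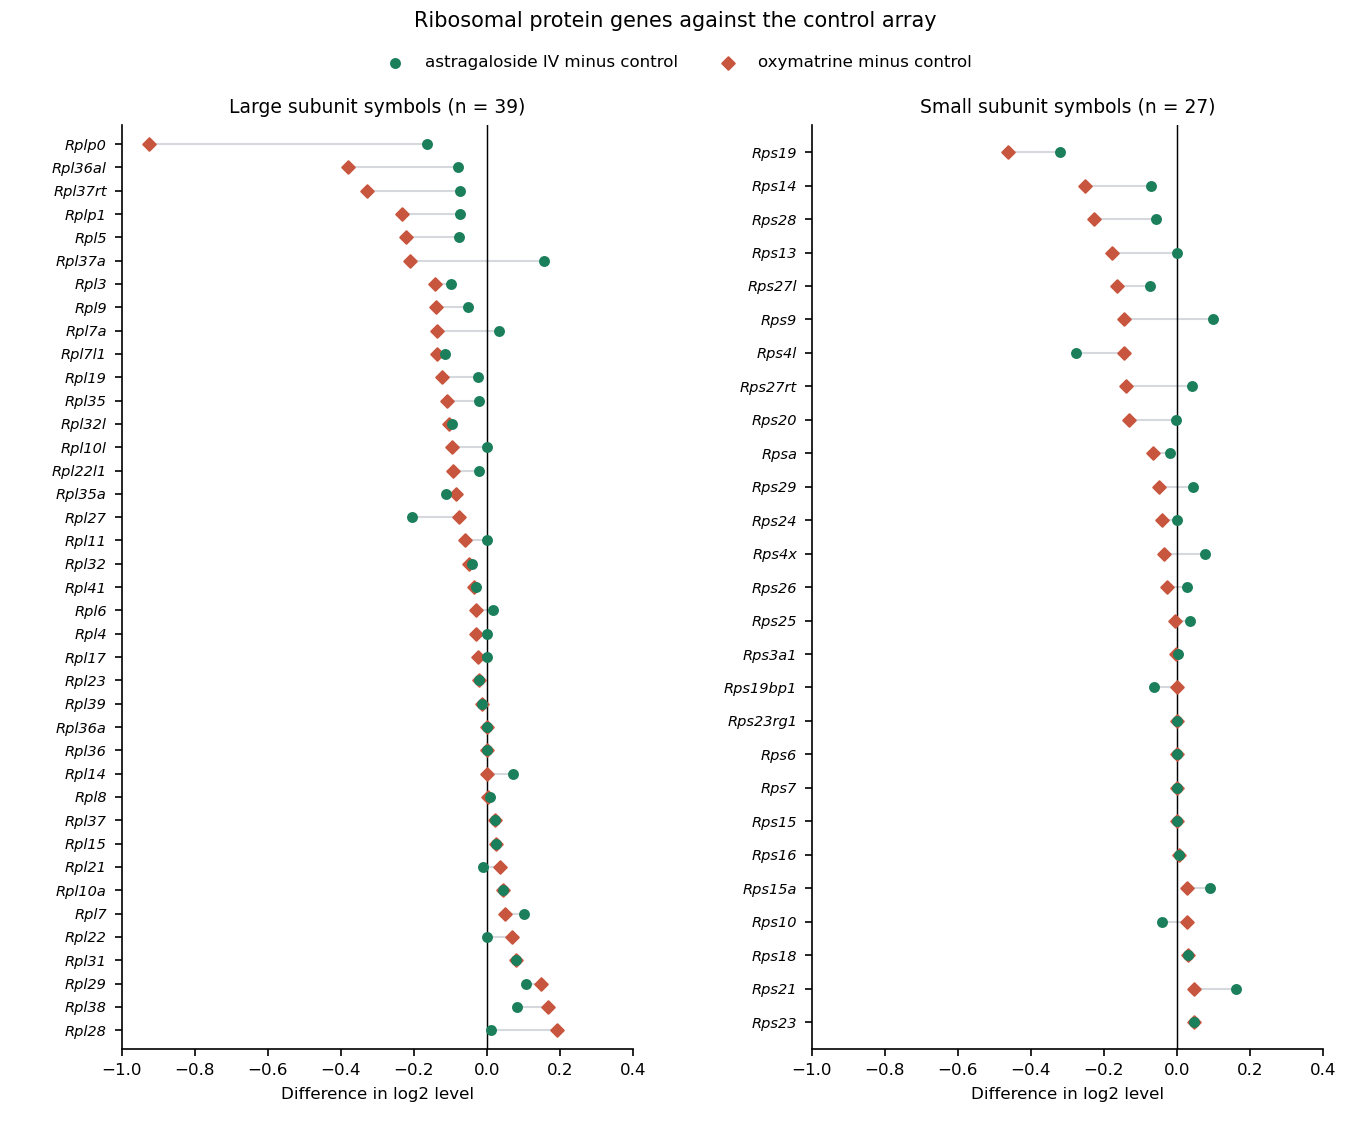
Difference in log2 level from the control array for the 66 ribosomal protein genes above background, with large subunit symbols on the left and small subunit symbols on the right. Circles stand for astragaloside IV minus control and diamonds for oxymatrine minus control, 1 array each. Rplp0 stands apart at -0.92 with oxymatrine, and most other members lie between -0.25 and 0.20 in both.

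A gene of the large subunit stalk, which recruits elongation factors to the ribosome, gave the widest difference of any member. Of 4 listed stalk genes, 2 were analysed. Rplp0, the base of the stalk, was at 12.22 with astragaloside IV, 11.46 with oxymatrine and 12.38 in control. The oxymatrine array alone was low, with a difference of -0.92, which leaves 0.527 of the control level, against -0.16 with astragaloside IV. Its partner Rplp1, an acidic protein of the same stalk, was at 16.88 with astragaloside IV, 16.72 with oxymatrine and 16.96 in control. Rplp1 was also lowest with oxymatrine, though by only -0.23, close to the -0.25 of Rps14 outside the stalk. Between the treated arrays Rplp0 was higher with astragaloside IV than with oxymatrine by 0.76 and Rplp1 by 0.16.

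Rps19, the small subunit gene mutated most often in the human disorder Diamond-Blackfan anaemia, was low in both treated arrays. It was at 13.73 with astragaloside IV, 13.59 with oxymatrine and 14.05 in control, giving differences of -0.32 with astragaloside IV and -0.46 with oxymatrine. Among 14 measured genes whose human counterparts are mutated in that disorder, the astragaloside IV array had 7 lower, 4 higher and 3 level with control, and the oxymatrine array 10 lower, 3 higher and 1 level. Their median was -0.01 with astragaloside IV and -0.05 with oxymatrine. Of all 66 members, 42.4% were lower with astragaloside IV and 62.1% with oxymatrine, against 40.8% and 46% of all genes above background. Rps19 was the only 1 of the 14 past 1.2-fold in either comparison. RefSeq names 13 pseudogenes after Rps19, and probes can also bind transcripts of near-identical copies. In all, 45 of the 68 members had at least 1 pseudogene named after them, with up to 24 for Rpl31.

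Rpl5 and Rpl11 enter the large subunit together with 5S rRNA, and when unassembled they bind the ubiquitin ligase Mdm2 and thereby stabilise p53. Rpl5 was at 16.35 with astragaloside IV, 16.21 with oxymatrine and 16.43 in control. Rpl11 was at 16.72 with astragaloside IV, 16.66 with oxymatrine and 16.72 in control. Both were lowest with oxymatrine, by -0.22 for Rpl5 and -0.06 for Rpl11.

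On the small subunit, most members measured along the path of the mRNA were lower with oxymatrine, as were 62.1% of all members above background. Among all genes above background 46% were lower with oxymatrine, and among those at 12 or more 52.8%. Of the 6 measured along the mRNA path, 4 were lower and 2 higher with astragaloside IV, and 5 were lower and 1 higher with oxymatrine, with a median of -0.03 with astragaloside IV and -0.10 with oxymatrine. Rps14 was at 14.43 with astragaloside IV, 14.25 with oxymatrine and 14.50 in control, and Rps28 was at 13.72 with astragaloside IV, 13.55 with oxymatrine and 13.78 in control. Both sit near the site where mRNA leaves the subunit, and both were lowest with oxymatrine, by -0.25 for Rps14 and -0.23 for Rps28. Rps9, near the mRNA entry, was highest with astragaloside IV, at 14.98 with astragaloside IV, 14.74 with oxymatrine and 14.88 in control. Of the 7 measured members that line or ring the tunnel through which the new chain leaves, 5 were lower and 2 higher with oxymatrine, with a median of -0.02 and a range of -0.12 to 0.08. These included Rpl4, at 16.76 with astragaloside IV, 16.74 with oxymatrine and 16.76 in control. The difference between these small groups was not tested.

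**Figure D2:**
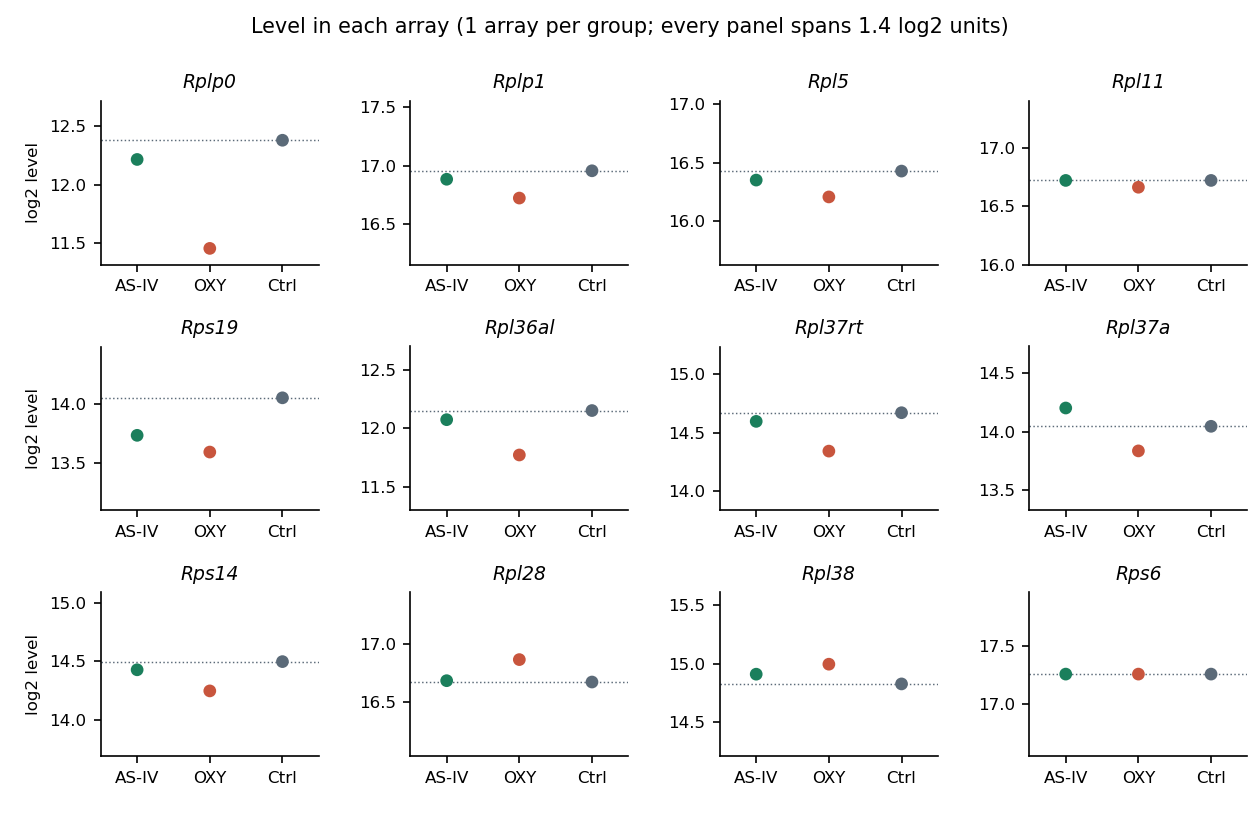
Log2 level of 12 members in the astragaloside IV (AS-IV), oxymatrine (OXY) and control (Ctrl) arrays, 1 point per array, with a dotted line at the control value and the same span in every panel. Rplp0, Rps19, Rpl36al and Rpl37rt are lowest with oxymatrine, Rpl28 and Rpl38 are highest with it, and Rps6 is equal in all 3.

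A few members of the large subunit went the other way in the oxymatrine array. Rpl28 was at 16.69 with astragaloside IV, 16.87 with oxymatrine and 16.67 in control, a difference of 0.19 for oxymatrine and 0.01 for astragaloside IV. Rpl38, which in mouse embryos is needed for the translation of a set of Hox mRNAs, was at 14.91 with astragaloside IV, 14.99 with oxymatrine and 14.83 in control. Rpl29, also of the large subunit, was at 13.92 with astragaloside IV, 13.96 with oxymatrine and 13.81 in control. These 3 were the members highest with oxymatrine, and all 3 lay within 1.2-fold of control. Rps6, the substrate of the S6 kinases downstream of mTORC1, was at 17.26 in each array.

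In the astragaloside IV array the members were spread about 0. Of the 66, 28 were lower, 25 higher and 13 equal, with a median of 0. Over all genes above background 27.7% were equal and the median was also 0. Lower by any amount were 42.4% of the members, 40.8% of all genes above background and 45.5% of those at 12 or more. Higher were 37.9% of the members, 31.4% of all genes above background and 30.3% of those at 12 or more. At least 1.2-fold lower were 2 members (3.03%), Rps19 and Rps4l, where 8.82% of all genes above background and 2.98% of genes at 12 or more were, and at least 1.2-fold higher were 0, where 5.85% and 1.25% were. Rps4l, a paralog of Rps4x, was at 5.20 with astragaloside IV, 5.33 with oxymatrine and 5.48 in control, so its astragaloside IV value lay below background. Rpl27, a large subunit gene, was at 11.46 with astragaloside IV, 11.59 with oxymatrine and 11.67 in control. On the higher side stood Rps21, at 14.59 with astragaloside IV, 14.48 with oxymatrine and 14.43 in control, and Rpl37a with a difference of 0.16. At 1.1-fold 4 members were lower and 2 higher (18.9% and 13% of all genes above background), and at 1.5-fold (1.28% and 0.843%) and 2-fold (0.159% and 0.0375%) there were 0 each way.

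Between the treated arrays the median member was slightly higher with astragaloside IV in every setting but the centring on the hybridisation controls. In the other settings that median ran from 0.02 to 0.07. Members were higher with astragaloside IV than with oxymatrine in 41 of 66 cases, lower in 10 and equal in 15, with a median of 0.03, against 40.7% higher, 32.5% lower and 26.7% equal over all genes above background, where the median was 0. Of genes at 12 or more, 44.1% were higher and 31.6% lower. Centred on the hybridisation controls, an alternative chosen after the data had been seen, the members had a median of -0.10. There were then 3 members at least 1.2-fold lower and 1 higher. Under this centring every gene of an array moves alike, so the members' difference relative to other genes did not change. The share of all genes past 1.2-fold was not computed under it. Past 1.2-fold, 3 members were higher with astragaloside IV (4.55%, where 8.93% of all genes above background and 2.54% of genes at 12 or more were) and 0 were lower (6.9% and 0.864%). These 3 were Rplp0, Rpl37a and Rpl36al. At 1.1-fold 13 were higher and 1 lower (18.3% and 14% of all genes above background), at 1.5-fold 1 and 0 (1.46% and 1.12%), and at 2-fold 0 and 0 (0.0843% and 0.075%). Rpl37a was at 14.20 with astragaloside IV, 13.83 with oxymatrine and 14.04 in control, so that it was higher than control in the first array and lower in the second. Rpl36al, an autosomal paralog of the X-linked Rpl36a, was at 12.07 with astragaloside IV, 11.77 with oxymatrine and 12.15 in control. Rpl36a itself was at 13.60 in each array.

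The oxymatrine array alone held the lowest of the 3 values for 36 of the 66 members (54.5%), the astragaloside IV array for 6 (9.09%) and the control array for 14 (21.2%). Over all genes above background these shares were 29.7%, 19.4% and 17.8%, and over genes at a level of 12 or more 34.4%, 19.2% and 18.5%, each time for oxymatrine, astragaloside IV and control. Of the 57 members at 12 or more, 32 (56.1%) were lowest with oxymatrine. The 2 differences from control share the control array, so they are not independent observations. The direction of the shift was the same as that of the 4 hybridisation controls, whose mean difference with oxymatrine was -0.19. When each array was centred on those controls, an alternative chosen after the data had been seen, the median of the members was 0.06 with astragaloside IV and 0.16 with oxymatrine. All other genes moved by the same amounts, so the comparison of members with other genes was not altered.

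**Figure D3:**
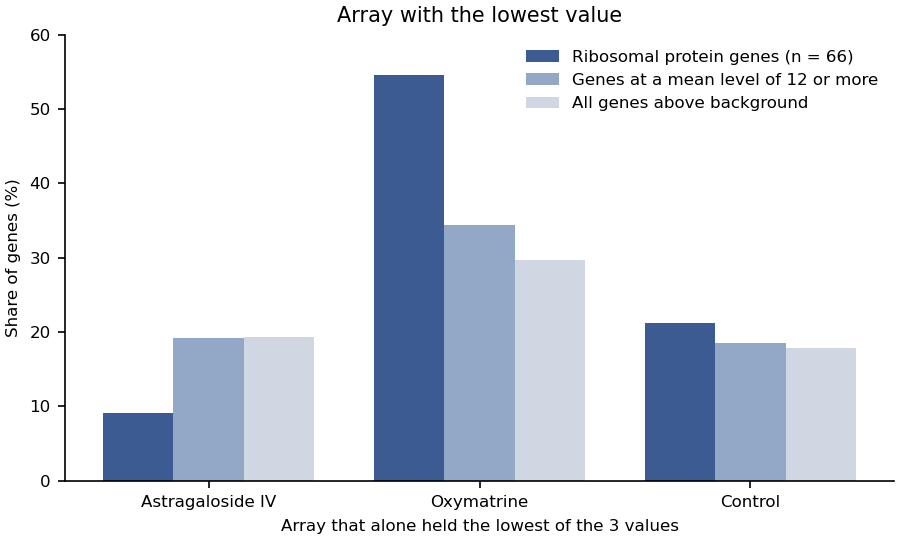
Share of genes, in percent, for which a single array held the lowest of the 3 values, for the astragaloside IV, oxymatrine and control arrays. Of the 66 ribosomal protein genes above background 54.5% were lowest with oxymatrine, against 34.4% of genes whose mean level reached 12 and 29.7% of all genes above background.

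The large and small subunit had medians within 0.01 of each other against control. With oxymatrine the median difference was -0.03 for 39 large subunit symbols and -0.03 for 27 small subunit symbols, and with astragaloside IV it was 0 for both. Means with oxymatrine were -0.08 for the large and -0.07 for the small subunit, and with astragaloside IV -0.01 for each. Between the treated arrays the medians were 0.02 for large and 0.05 for small subunit symbols. Among canonical members alone they were 0.00 and 0.05, with 15 of 22 small subunit genes higher with astragaloside IV and 1 lower, and 18 of 33 large subunit genes higher and 7 lower.

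Paralogs and genes that only share the name were mostly lower than control in both treated arrays. With astragaloside IV the 11 above background comprised 8 lower, 1 higher and 2 equal, with a median of -0.07, against 20 lower, 24 higher and 11 equal among 55 canonical members, with a median of 0. With oxymatrine there were 9 lower, 0 higher and 2 equal, with a median of -0.14, against 32 lower, 17 higher and 6 equal among 55 canonical members, with a median of -0.02. Rpl37rt, a retrogene of Rpl37, was at 14.60 with astragaloside IV, 14.34 with oxymatrine and 14.67 in control, while Rpl37 itself was at 16.06 with astragaloside IV, 16.06 with oxymatrine and 16.04 in control. Rps27l, a paralog of Rps27 that p53 induces in human cells, was at 15.03 with astragaloside IV, 14.94 with oxymatrine and 15.11 in control. Rpl22l1, whose partner gene Rpl22 represses it in mice, was at 11.36 with astragaloside IV, 11.28 with oxymatrine and 11.38 in control. Rpl22 itself was at 15.58 with astragaloside IV, 15.65 with oxymatrine and 15.58 in control, so the partners were on opposite sides of control with oxymatrine. Among the other paralogs, the differences in the astragaloside IV and oxymatrine arrays were -0.11 and -0.14 for Rpl7l1, -0.10 and -0.10 for Rpl32l, 0 and -0.10 for Rpl10l, and 0.04 and -0.14 for Rps27rt. Rps19bp1 differed by -0.06 with astragaloside IV and was equal to control with oxymatrine, and Rps23rg1 was at 5.86 in each array. Of all genes above background, 40.8% were lower with astragaloside IV and 46% with oxymatrine. Whether paralogs and canonical members differ was not tested.

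Read against their annotated starts, members with a TOP motif at the first base had differences on both sides of 0 with oxymatrine. Of the 13, all of which were above background, 4 were lower, 7 higher and 2 equal in that array, with a range of -0.14 to 0.19 and a median of 0.02. The 40 others with a promoter entry included 29 lower, 6 higher and 5 equal, with a range of -0.92 to 0.08 and a median of -0.04. With the motif allowed within 10 bases of the start, medians were 0 for 31 members with it and -0.06 for 22 without it. In the astragaloside IV array the medians were 0.02 with the motif at the first base and 0 without it. The split was made after the values had been seen, and it was not tested. A gene with no match has no such run starting at the positions searched. A run can still start further in, as in the windows of Rplp0 and Rpl36al. The letters CCGGAAG, a core bound by ETS factors, stood on either strand of the 300 base promoters of 38.2% of members, 37.7% of mitochondrial ribosomal protein genes and 9.93% of all genes. Members with CCGGAAG had a median of 0.00 with oxymatrine (n = 20) and members without it -0.08 (n = 33). The letters AAGATGG, bound by YY1, stood in 14.5% of members and 7.28% of all genes, TATAAA in 12.7% and 15.7%, and CACGTG, the E-box bound by MYC, in 7.27% and 8.09%.

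Other genes of the translation machinery had differences of similar size. Fau, which encodes a small subunit protein fused to a ubiquitin-like domain and whose symbol falls outside the rule, was at 15.84 with astragaloside IV, 15.79 with oxymatrine and 15.85 in control. Of 19 measured translation factors and other genes with TOP mRNAs, the astragaloside IV array had 10 lower, 6 higher and 3 level with control (median 0.00), and the oxymatrine array had 12 lower, 3 higher and 4 level (median -0.04). Of all genes above background 40.8% and 46% were lower in these arrays, and of the ribosomal members 42.4% and 62.1%. The nucleolar chaperone gene Npm1 was at 15.53 with astragaloside IV, 15.34 with oxymatrine and 15.67 in control, and it was the only 1 of the 19 past 1.2-fold. Eif3f, a subunit of initiation factor eIF3, was at 14.71 with astragaloside IV, 14.65 with oxymatrine and 14.88 in control.

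Ribosome biogenesis genes, 44 of which were measured above background, had 19 lower, 12 higher and 13 level with control in the astragaloside IV array. The oxymatrine array had 19 lower, 15 higher and 10 level, and the median was 0 in each. Their differences ran from -0.77 to 0.67 with astragaloside IV and -0.56 to 0.64 with oxymatrine. Lower in each treated array were 43.2% of the 44, against 40.8% with astragaloside IV and 46% with oxymatrine over all genes above background. Eif6, which keeps free large subunits from joining small ones, was at 13.11 with astragaloside IV, 12.75 with oxymatrine and 13.31 in control. Riok2, a kinase that acts in the last steps of small subunit maturation, was at 9.46 with astragaloside IV, 10.00 with oxymatrine and 10.23 in control. Rrp1b, a nucleolar protein, was higher in both treated arrays, at 6.91 with astragaloside IV and 6.89 with oxymatrine, against 6.24 in control.

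Among 22 genes of mTORC1 signalling and TOP mRNA control, the astragaloside IV array had 7 lower, 9 higher and 6 level with control (median 0), and the oxymatrine array had 13 lower, 6 higher and 3 level (median -0.06). Lower with oxymatrine were 59.1% of the 22 and 46% of all genes above background. With astragaloside IV these shares were 31.8% and 40.8%. Eif4ebp1, a translation repressor that mTORC1 inactivates, was at 9.93 with astragaloside IV, 9.44 with oxymatrine and 10.11 in control. Rptor, the scaffold of mTORC1, was at 10.05 with astragaloside IV, 9.84 with oxymatrine and 10.21 in control. Larp1 was highest with oxymatrine, at 13.14 with astragaloside IV, 13.34 with oxymatrine and 13.10 in control.

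Mitochondrial ribosomal proteins and proteasome subunits, 2 other large sets of complex subunits, had medians close to those of the cytosolic set. Larger shares of both sets were at least 1.2-fold lower with oxymatrine. Of 74 mitochondrial members above background, the astragaloside IV array had 27 lower, 24 higher and 23 level with control (median 0), and the oxymatrine array 39 lower, 22 higher and 13 level (median -0.01). Of 37 genes with proteasome subunit symbols, the astragaloside IV array had 14 lower, 14 higher and 9 level with control (median 0). The oxymatrine array had 21 lower, 6 higher and 10 level (median -0.01). Psmc3ip, counted among the higher genes, only shares the name and differed from control by 0.03 in both arrays. Past 1.2-fold with oxymatrine were 8 mitochondrial members lower (10.8%) and 1 higher (1.35%), and 7 proteasome subunits lower (18.9%) and 0 higher. Of all genes above background 12.5% were lower and 7% higher, and of genes at 12 or more 6.1% and 1.97%. Of the cytosolic members 6.06% were that much lower. The median level in control was 13.31 for the proteasome set and 9.72 for the mitochondrial set. The lowest mitochondrial member was Mrpl43, with -0.92 for astragaloside IV and -0.93 for oxymatrine, and the lowest proteasome subunit with oxymatrine was Psma3, with -0.20 for astragaloside IV and -0.58 for oxymatrine.

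**Figure D4:**
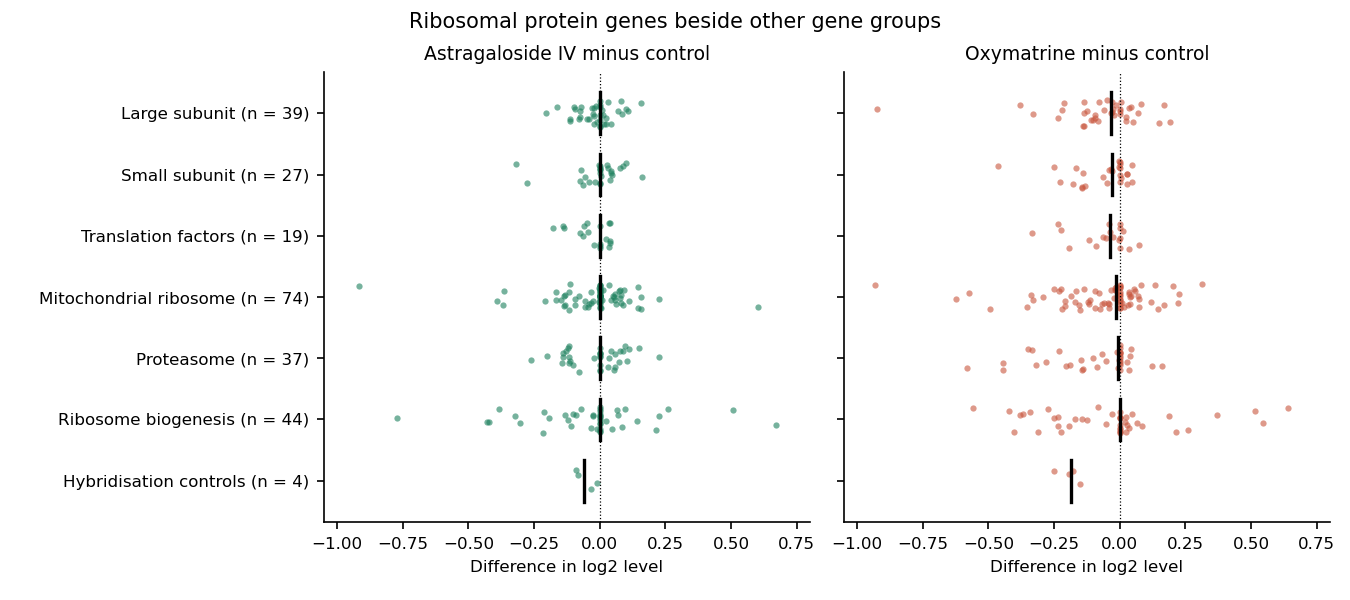
Difference in log2 level from the control array for astragaloside IV (left) and oxymatrine (right). Each point is a gene above background or, in the bottom row, a hybridisation control, and black bars are medians. The medians of the large and small subunit are 0 with astragaloside IV and -0.03 with oxymatrine, and all 4 hybridisation controls lie below 0 in both panels.

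Exact ties were frequent among the members, as over the array. Values equal to within 1e-05 in at least 2 arrays were found for 24 of 66 members (36.4%), compared with 51.6% of all genes above background and 44.5% of genes at 12 or more. All 3 values were equal for 6 members (9.09%, where 13.6% of all genes above background and 11.4% of those at 12 or more were), Rpl36, Rpl36a, Rps6, Rps7, Rps15 and Rps23rg1. The treated arrays were equal to each other and different from control for 9 members (13.1% of all genes above background and 12.8% of those at 12 or more), among them Rps23, Rpl15 and Rpl31, which were higher than control by 0.05, 0.02 and 0.08. Median polish can give such ties, so an exact 0 is no measured identity of levels.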

How the data were processed

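RNA was measured with 1 whole-transcript array per group, on 3 samples of mouse bone marrow-derived plasmacytoid dendritic cells. The deposited values are log2 levels per probe set, made by the authors with RMA per the submitters' processing notes. Its variant and software version were not given in the sources used here. RMA equalises the arrays by quantiles and summarises probes by median polish. That the base is 2 was taken from the largest and smallest values, 19.67 and 1.78 in the oxymatrine array. Every fold given here rests on that base and on the scale of the unnamed RMA variant. Of 28846 probe sets, 19572 had a gene symbol in the platform annotation, and the brightest represented each of 55 genes with several. Each comparison is the difference of 2 log2 values, counted past 1.2-fold, with no test. There is no read depth, and having 1 array a group limits the precision. Members, lists and thresholds were chosen with earlier results of these data known. The 3 symbols Rpl32l, Rpl37rt and Rps23rg1 joined the paralog list after the files were read. Named members were drawn from the 6 highest and 6 lowest per comparison, the extremes of level, the stalk, the 5S rRNA binders and the paralogs. Further sources were the 3 that differ most each way between the differences from control and, of other lists, up to 2 each way. Members named beyond these (such as Rpl4, Rpl36a, Rpl37 and Rps28) were chosen after their values were seen. Some genes that the rules select, such as Rpl7 and the mTORC1 list gene Deptor, are not described above. Alternatives were other folds, centring, quantile normalisation, means, canonical members alone and leaving out Rplp0. Python 3.11.15, numpy 2.4.6, pandas 2.3.3 and matplotlib 3.10.9 were used.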

Additional observations from a re-analysis of the deposited data

Results flagged for a closer look

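Rpl37a was higher than control in the astragaloside IV array by 0.16 and lower in the oxymatrine array by -0.21, so the 2 differences lay 0.37 apart. It was picked out because the groups went opposite ways by at least 0.1 each, and this difference was not tested.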

How the results depend on the processing

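Of the recomputed values 72 stayed within 0.01 of the reported median or 1.5 times of the reported count, and 33 did not. At 1.1-fold, members lower and higher were 4 and 2 for astragaloside IV against control, 16 and 3 for oxymatrine against control, and 1 and 13 for astragaloside IV against oxymatrine. At 1.5-fold these were 0 and 0, 1 and 0, and 0 and 1, and at 2-fold each was 0. Canonical members alone gave 1 at least 1.2-fold lower with astragaloside IV (1.82%) and 2 with oxymatrine (3.64%). Of all genes above background 8.82% and 12.5% were that much lower. The large minus small subunit median of canonical members was -0.0466 for astragaloside IV against oxymatrine. Centring on the median of all genes gave medians of -0.059 for oxymatrine against control and 0.0661 for astragaloside IV against oxymatrine. In the second, 5 members were then at least 1.2-fold higher, and the share of all genes that much higher was not computed under that centring. Quantile normalisation gave 0.0235 for astragaloside IV against oxymatrine, and large minus small subunit medians of -0.0107 for astragaloside IV and -0.0263 for oxymatrine against control. Means in place of medians were -0.0124 for astragaloside IV and -0.0731 for oxymatrine against control, and 0.0607 for astragaloside IV against oxymatrine, where large minus small was 0.00114. Centring on the 4 hybridisation controls, chosen after seeing the data, reversed the medians of 2 comparisons, to 0.161 for oxymatrine against control and -0.103 for astragaloside IV against oxymatrine. The median for astragaloside IV against control, reported as 0, was then 0.0551. Because every gene of an array moved alike, the members' difference relative to other genes did not change. Members past 1.2-fold were then 1 lower with astragaloside IV, and 2 lower and 5 higher with oxymatrine. For astragaloside IV against oxymatrine they were 3 lower and 1 higher. Shares over all genes were not computed under this centring. The reversals come from that shift of whole arrays. Why the hybridisation controls differed between the arrays was not tested. No paired analysis was possible because each group has 1 array and the labels give no replicate numbers.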
